A study of Mus musculus with 4 samples.

Results

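Gained rises are stretches of the mouse genome where the direction of DNA replication forks, read as a profile along the chromosome, climbed more steeply in embryonic stem cells that lack Snf2h than in wild-type cells. TrAEL-seq, a method that ligates an adaptor to free DNA 3′ ends and sequences them, had been run on 2 libraries of wild-type (WT) cells of the line 129S6/SvEvTac and on 2 libraries of the same line labelled as a knockout (KO) of Snf2h, the ATPase motor of ISWI chromatin remodelling complexes. All cells were embryonic stem cells grown on gelatin in medium with serum and LIF, and the labels do not say whether the knockout is a single clone. Nothing in the labels ties the replicates to separate cultures beyond the statement that cells were grown in duplicate, and Snf2h itself was not measured. The profile is polarity, the imbalance of captured ends between the strands in percentage points (points), given for windows of 100 kb spaced 25 kb apart on GRCm38.

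Each library was divided by its own SD over autosomal windows, which was 14.6 points in WT replicate 1, 12.9 in WT replicate 2, 19.4 in KO replicate 1 and 14.5 in KO replicate 2. D is the change of this scaled value from a window to the one 200 kb downstream. A window was kept where the smaller KO D was at least 1 SD and lay at least 0.75 SD above the larger WT D, a difference called the gap. Of 94040 autosomal windows with a D in all 4 libraries, 539 were kept (0.573%), and merging of neighbours gave 276 gained rises. The members were chosen by the KO against WT difference in D over all 4 libraries, so these values are a description, and nothing is read from their number. The mirrored rule gave 804 windows (0.855%) in 382 lost rises, and a D of at least 1 SD in all 4 libraries was found at 11.1% of windows, whose rises without a gained or lost window are called kept rises (2050).

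Replication of a mammalian chromosome starts in initiation zones, from which forks move out in both directions, and ends where forks from neighbouring zones meet. In profiles of fork direction an initiation zone appears as a short steep transition, and a region of merging forks as a longer slope of the opposite sign. ISWI remodellers slide and space nucleosomes, and Snf2h is known for helping the architectural factor CTCF and some other factors to bind their sites. The sources used here do not state which strand counts as positive, so a rise is described as a rise and is not called an initiation zone.

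Promoters at the gained rises ranged from CpG-rich to CpG-poor. Among the 20 gained rises with the largest gap, 12 held a promoter of a protein-coding gene listed in RefSeq (build GRCm38.p6, 250 bases before to 50 after the start), and the one nearest to the middle of each rise was taken. The 4 shown span the range of CpG content found there, with 42, 36, 3 and 2 CG dinucleotides, and capitals mark each CG. Nav2 encodes a neuron navigator protein, and the listed promoter, at chr7:49245939-49246238 on the plus strand, is a start inside the gene, which spans 48959063 to 49610090. Hdac2 encodes a histone deacetylase, with its promoter at chr10:36974294-36974593 on the plus strand. The promoter of Lrrc31, a leucine-rich repeat gene, lies at chr3:30699794-30700093 on the minus strand. Sprr2b belongs to the small proline-rich genes of the cornified envelope of skin, and its promoter lies at chr3:92316455-92316754 on the plus strand.
Nav2: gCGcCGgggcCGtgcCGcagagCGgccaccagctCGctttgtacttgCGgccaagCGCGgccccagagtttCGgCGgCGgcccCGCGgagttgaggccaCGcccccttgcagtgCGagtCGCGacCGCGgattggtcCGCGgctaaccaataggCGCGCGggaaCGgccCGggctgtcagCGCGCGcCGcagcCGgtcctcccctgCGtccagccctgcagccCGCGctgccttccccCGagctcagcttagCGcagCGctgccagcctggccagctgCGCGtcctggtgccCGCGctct
Hdac2: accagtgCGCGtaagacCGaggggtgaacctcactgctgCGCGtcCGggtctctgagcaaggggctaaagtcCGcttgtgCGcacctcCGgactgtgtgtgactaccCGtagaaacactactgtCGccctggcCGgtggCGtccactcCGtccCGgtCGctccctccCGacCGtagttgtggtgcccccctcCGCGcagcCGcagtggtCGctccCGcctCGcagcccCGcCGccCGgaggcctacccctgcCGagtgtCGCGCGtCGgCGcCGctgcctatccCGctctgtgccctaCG
Lrrc31: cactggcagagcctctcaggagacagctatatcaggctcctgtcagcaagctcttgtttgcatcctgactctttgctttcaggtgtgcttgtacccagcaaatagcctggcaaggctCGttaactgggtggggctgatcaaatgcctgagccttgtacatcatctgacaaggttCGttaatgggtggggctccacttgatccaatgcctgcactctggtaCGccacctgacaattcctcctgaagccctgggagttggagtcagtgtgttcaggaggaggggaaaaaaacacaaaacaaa
Sprr2b: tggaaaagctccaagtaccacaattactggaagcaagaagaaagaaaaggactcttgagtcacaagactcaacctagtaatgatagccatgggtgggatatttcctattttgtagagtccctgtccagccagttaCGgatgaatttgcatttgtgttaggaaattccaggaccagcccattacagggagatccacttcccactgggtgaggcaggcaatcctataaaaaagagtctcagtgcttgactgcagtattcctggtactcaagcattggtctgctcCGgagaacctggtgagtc

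Most gained rises were narrow. A single window made up 150 of the 276 (54.3%) and a pair of windows 61, whereas 65 (23.6%) held at least 3 windows and 17 (6.16%) at least 5. From the middle of the first window to the middle of the last partner window, their width ran from 200 to 375 kb with a median of 200 kb, which is the smallest the rule allows. Over all gained rises the D at the window with the largest gap had a median of 0.585 and 0.521 SD in WT replicates 1 and 2. The medians in KO replicates 1 and 2 were 1.85 and 1.95 SD. In points, the median rise over 200 kb was 8.56 and 6.70 in the WT libraries, whereas the KO libraries had 36.0 and 28.4. The gap ran from 0.751 to 3.68 SD with a median of 0.973 SD.

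**Figure D1:**
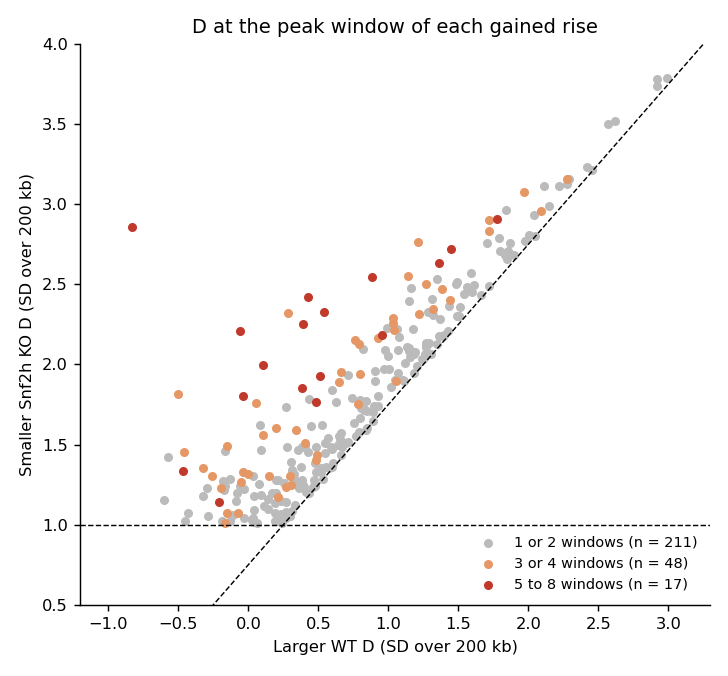
Larger WT D (horizontal axis, SD of the library over 200 kb) against smaller Snf2h KO D (vertical axis, same unit) at the peak window of each of the 276 gained rises, coloured by the number of merged windows; dashed lines are the thresholds that chose them. The median gap is 0.973 SD, close to the slanted threshold, and the rise on chromosome 14 with a gap of 3.68 SD lies farthest from that line.

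The name of the group describes only part of it, because many of these places already rose in WT. In 139 of 276 (50.4%) the mean WT D was above 0.5 SD, so that the KO rise was a larger one. In 124 (44.9%) the WT profile was flat, with a mean D between -0.5 and 0.5 SD, and in 13 (4.71%) it fell by more than that. Both WT libraries had a D of at least 1 SD at 67 gained rises, and both fell at 37. A rise found in all 4 libraries lay within 500 kb of 240 of the 276 (87.0%), but 81 gained rises (29.3%) themselves hold a window that rises in all 4 libraries and so count as their own neighbour. When rises found in all 4 libraries that hold a gained window were set aside, 181 of 276 (65.6%) had one within 500 kb, at a median distance of 375.0 kb. Over all windows tested the share was 66.5%, at a median of 325.0 kb. With kept rises alone, 62.7% of gained rises and 64.2% of all windows had one within 500 kb. The shares of gained rises and of all windows were thus close once a rise could not be its own neighbour, and no test of the difference was made.

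The mean profiles of the replicates of a genotype lay close together. Around the 124 places that were flat in WT, the KO profile ran down to -0.747 and -0.874 SD at 100 kb before the middle. It then climbed to 0.702 and 0.705 SD at 100 kb after it. At the 139 places with a smaller WT rise, the span from lowest to highest value within 500 kb was 1.37 and 1.31 SD in WT and 2.37 and 2.46 SD in KO. The values before and after the rise are the same ones that make up D, so they describe the choice and support nothing. Over the 276 gained rises the KO mean was lower than WT before the rise by a median of -0.615 SD and higher after it by a median of 0.661 SD. In 271 of 276 the upstream value was lower and the downstream value higher.

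**Figure D2:**
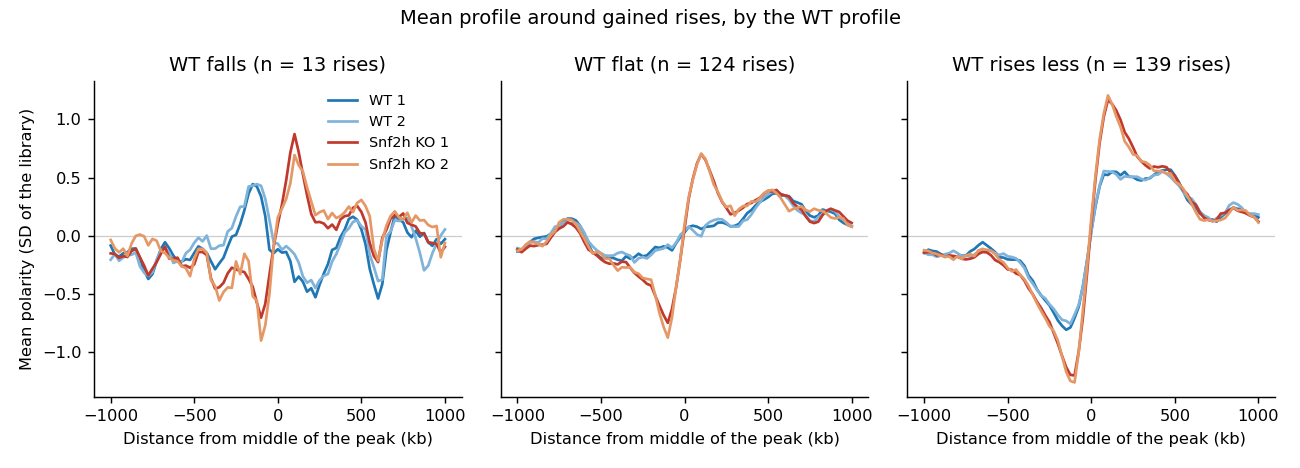
Mean polarity of each library (vertical axis, in SD of that library) against distance from the middle of the peak interval (horizontal axis, kb), for gained rises where WT fell (n = 13), was flat (n = 124) or rose less (n = 139); each line is a library. KO lines dip before 0 kb and peak after it in every panel. WT lines are nearly flat within 100 kb of 0 in the middle panel, where they span 0.546 and 0.585 SD within 500 kb. In the right panel they rise less than the KO lines.

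The D values given for a rise are those of its peak interval, the 200 kb of the window with the largest gap, whereas the coordinates and genes are those of the whole merged interval. Of the genes named with D values from here on, Adam7, Cd5l, Cpa6, Prex2, Actrt3, Slc39a10, Ezh2, Rprd1b, Adam21, Adam22 and Nkain2 lie outside the peak interval of their rise.

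The largest gap was at a group of ADAM protease genes on chromosome 14, from 68425000 to 68800000. Here D was -1.18 and -0.830 SD in WT and 2.85 and 3.01 SD in KO, a gap of 3.68 SD over 8 merged windows. In points the profile changed by -13.96 ± 4.66 in WT and by 49.6 ± 8.34 in KO (mean ± SD over 2 libraries). Adam28, a metalloprotease gene of lymphocytes, Adamdec1, which encodes an ADAM-like protein of macrophages and dendritic cells, and Adam7, expressed in the male reproductive tract, overlap it. Both WT libraries fell and both KO libraries rose across it. As at every member, the rule itself keeps the genotypes from overlapping. The nearest rise shared by all libraries was 612.5 kb away.

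On chromosome 3, from 87350000 to 87625000, D was -1.60 and -0.499 SD in WT and 1.99 and 1.82 SD in KO. The interval holds the B-cell receptor-like genes Fcrl1 and Fcrl5, the macrophage gene Cd5l, and Etv3 and Etv3l, which encode ETS-family transcription factors. WT replicates differed more here than KO replicates, and the change was -14.9 ± 11.97 points in WT, against 32.5 ± 8.66 points in KO (mean ± SD over 2 libraries).

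A pair of the largest gains lay in stretches without a protein-coding gene. The first, on chromosome 3 from 11400000 to 11750000, had D of -0.0606 and -0.732 SD in WT and 2.29 and 2.21 SD in KO. Its nearest protein-coding gene, the sorting nexin gene Snx16, was 959.9 kb away. The other, on chromosome 14 from 15825000 to 16100000, had 0.261 and 0.280 SD in WT and 2.32 and 2.49 SD in KO, and lay 138.7 kb from Oxsm, a gene of mitochondrial fatty acid synthesis.

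A gap without protein-coding genes lies between Cpa6, a carboxypeptidase gene with coordinates up to 10720053, and Prex2, which encodes an exchange factor for Rac, with coordinates from 10993273. There D was 0.423 and 0.136 SD in WT and 2.66 and 2.42 SD in KO (chromosome 1, 10700000 to 11050000). On the same chromosome from 8750000 to 9100000, at the syntrophin gene Sntg1, D was 0.393 and 0.543 SD in WT and 2.32 and 2.39 SD in KO. At Nav2, from 49075000 to 49300000 on chromosome 7, it was -0.573 and -0.841 SD in WT and 1.42 and 1.77 SD in KO. Of these 3 places, WT fell at Nav2 alone, and there both WT libraries climbed slightly farther downstream, from -1.198 and -0.888 SD at 50 kb after the middle to 0.420 and 0.738 SD at 200 kb after it.

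**Figure D3:**
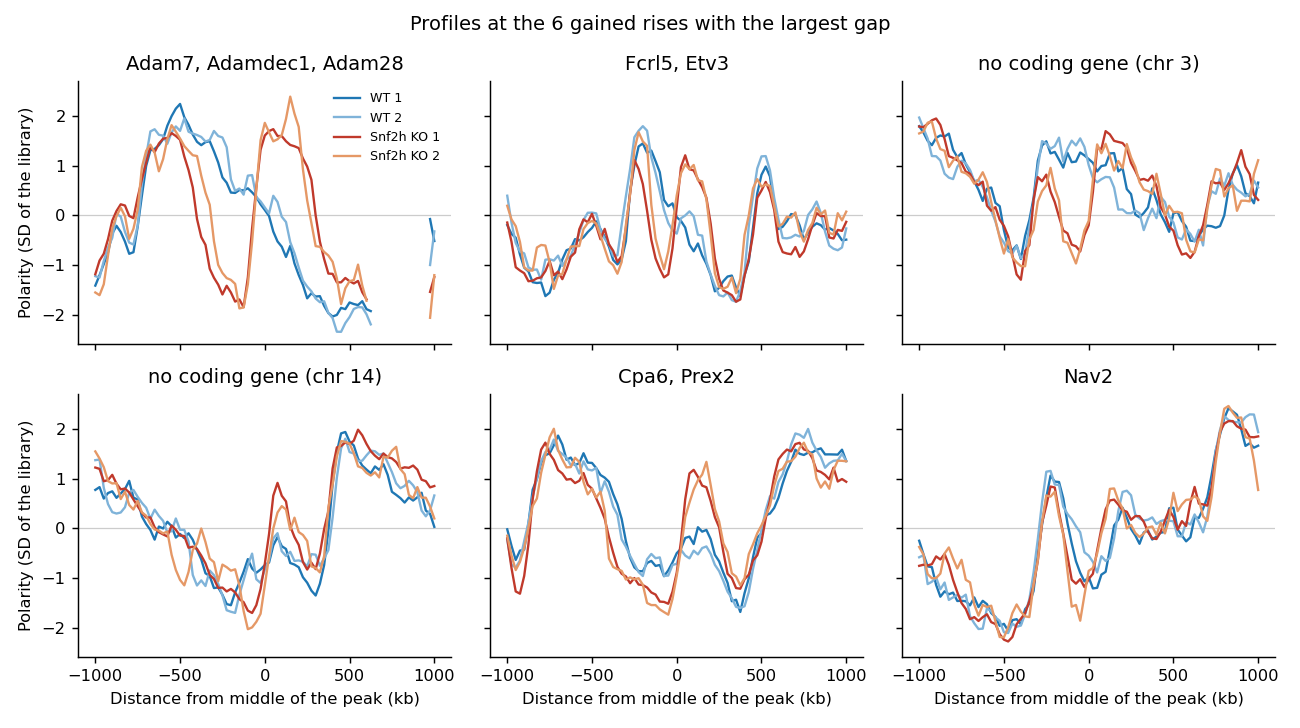
Polarity of each library (vertical axis, in SD of that library) against distance from the middle of the peak interval (horizontal axis, kb) at the 6 gained rises with the largest gap, named by protein-coding genes in the interval; a line breaks where a window has no value. At the Adam genes the KO lines climb around 0 kb while the WT lines fall, with D of -1.18 and -0.830 SD, and at Nav2 the WT lines climb as well, farther downstream.

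A rise over the zinc finger genes Zfp398 and Zfp786 also overlapped the higher-coordinate side of Ezh2, the methyltransferase of Polycomb complex PRC2 (chromosome 6, 47575000 to 47875000). There D was -0.465 and -0.544 SD in WT and 1.34 and 1.35 SD in KO. At Hdac2 and Hs3st5, a heparan sulfate sulfotransferase gene, it was 0.810 and 0.886 SD in WT and 3.10 and 2.55 SD in KO (chromosome 10, 36800000 to 37125000). At Jun, a subunit of the transcription factor AP-1, it was 0.0580 and -0.268 SD in WT and 1.76 and 1.79 SD in KO (chromosome 4, 95000000 to 95250000). WT thus fell at Zfp398 and Zfp786, rose at Hdac2 and was nearly flat at Jun.

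At Dnah7c, an axonemal dynein gene, and the zinc transporter gene Slc39a10, D was -0.174 and 0.104 SD in WT and 2.00 and 2.56 SD in KO (chromosome 1, 46525000 to 46825000). At Ttc29, a gene of the sperm tail, it was 0.375 and 0.393 SD in WT and 2.25 and 2.65 SD in KO (chromosome 8, 78000000 to 78300000). Around Lrriq4, Lrrc31, Lrrc34, Mynn and Samd7, with the actin-related gene Actrt3 of the testis, it was -0.474 and -0.462 SD in WT and 1.46 and 1.87 SD in KO (chromosome 3, 30550000 to 30800000). The WT values were nearly equal between replicates at Ttc29 and at Lrrc31.

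Over the Sprr2 genes, D was -0.979 and -0.167 SD in WT and 1.46 and 2.39 SD in KO (chromosome 3, 92200000 to 92425000), with a wide spread in both genotypes. At Pgk2, the testis form of a glycolytic kinase, and Crisp3, a secreted protein gene, it was -0.149 and -0.553 SD in WT and 1.49 and 1.55 SD in KO (chromosome 17, 40000000 to 40275000). At Itga8, an integrin subunit gene of kidney development, it was -1.10 and -0.601 SD in WT and 1.16 and 1.42 SD in KO (chromosome 2, 11950000 to 12150000). This last one was a single window, whereas the former ones held 2 and 4.

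Around Tgm2, which encodes a transglutaminase, with Rprd1b, Bpi and D630003M21Rik, D was -0.405 and -0.321 SD in WT and 1.60 and 1.35 SD in KO (chromosome 2, 158025000 to 158300000). Over a dense group with the splicing gene Prpf39, Fkbp3 and the DNA repair helicase gene Fancm, it was 1.21 and 1.01 SD in WT and 2.79 and 2.76 SD in KO (chromosome 12, 64925000 to 65200000). Here WT rose as well, and KO rose further. Another of the 20, from 17900000 to 18250000 on chromosome 9, held no protein-coding gene and lay 42.3 kb from Chordc1. Its D was -0.0413 and -0.770 SD in WT and 1.80 and 1.81 SD in KO.

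Of the 20, only 4 were farther than 500 kb from every rise found in all 4 libraries: those at the ADAM genes, between Cpa6 and Prex2, at Dnah7c and at Zfp398. Among all 276 there were 36 such rises, with a median gap of 1.08 SD against 0.965 SD for the other 240. The 240 include the gained rises that count as their own neighbour, and 68.5% of all windows had a rise found in all 4 libraries within 500 kb. The most isolated gained rise lay at uncharacterised genes such as Gm8126 and Gm8127 on chromosome 14 (43175000 to 43400000), 2137.5 kb from the nearest rise of that kind. Its D was -0.259 and -0.134 SD in WT and 1.29 and 2.38 SD in KO, with a wide spread between KO replicates.

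The gene of the deleted remodeller is itself at a gained rise. Smarca5, which encodes Snf2h, spans 80699943 to 80739459 on chromosome 8, at the upstream end of an interval from 80700000 to 80925000 that also holds the signalling adaptor gene Gab1. D was 1.80 and 2.04 SD in WT and 2.93 and 2.95 SD in KO, a gap of 0.890 SD that ranked 176 of 276. The place thus rose in all 4 libraries, and more in KO. Of 11 genes for ISWI subunits and partners on the autosomes it was the only one in a gained rise (9.09%, against 3.48% of all protein-coding genes). In kept rises lay 5 of them (45.5%), close to the 43.6% of all protein-coding genes.

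Gene families and pathways were looked up by symbol, and shares in gained rises are to be read against the 720 of 20665 autosomal protein-coding genes (3.48%) that overlapped a gained rise. ADAM protease genes had 7 of 35 (20.0%), in 5 separate rises, with 3 of the genes in the rise on chromosome 14. At Adam24, a sperm-surface gene on chromosome 8, D was 0.585 and 0.763 SD in WT and 2.15 and 2.50 SD in KO. Next to Adam21 on chromosome 12 it was -0.0737 and 0.200 SD in WT and 1.95 and 1.60 SD in KO. The other members were Adam19 and Adam22, with gaps of 1.10 and 0.9499 SD. In lost rises lay 0 of the 35 ADAM genes, against 4.13% of all protein-coding genes, and 9 (25.7%) lay in kept rises, against 43.6%.

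Zinc finger genes named Zfp had 19 of 388 (4.90%) in 10 gained rises. Olfactory receptor genes had 15 of 1104 (1.36%), in 4 rises of which 2 overlap on chromosome 9. Vomeronasal receptor genes had 2 of 352, Vmn2r95 and Vmn2r96 on chromosome 17, where D was 0.663 and -0.467 SD in WT and 2.27 and 1.95 SD in KO. Cytochrome P450 genes had 2 of 99, Cyp11a1 and Cyp24a1. Of the 71 defensin, 81 histone, 67 protocadherin, 27 kallikrein and 18 killer-cell lectin-like receptor genes, 0 overlapped a gained rise.

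Protein-coding genes longer than 500 kb had 16 of 216 (7.41%) in gained rises, 36 (16.7%) in lost rises, which held 4.13% of all protein-coding genes, and 110 (50.9%) in kept rises. A long gene is more likely to touch any interval, and the shares count a gene once. At equal length the order differed. Such a gene overlapped the 200 kb peak interval of 15 of 276 gained rises (5.43%), against 9.46% over all windows. The share was 9.42% for lost rises and 5.66% for kept rises. Besides Nav2, Sntg1 and the laminin gene Lama2, the 16 long genes in gained rises included Nkain2, which encodes a partner of the sodium pump. In the peak interval next to Nkain2, D was 0.433 and -0.0613 SD in WT and 2.09 and 1.79 SD in KO. Others were the neuronal genes Csmd3, Dab1, Grid1, Grip1, Nbea and Unc5d.

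Replication initiation genes had 1 of 28 in a gained rise, Mcm6, a subunit of the replicative helicase, and 17 of 28 (60.7%) in kept rises. At Mcm6, D was 1.80 and 1.71 SD in WT and 2.71 and 2.94 SD in KO. Of 16 pluripotency genes, 0 lay in a gained rise and 13 (81.2%) in kept rises. Across all protein-coding genes, 43.6% lay in kept rises.

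Gained rises were seldom empty of genes. For a comparison at equal length, the 200 kb interval of the window with the largest gap was used. It held no protein-coding gene in 34 of 276 gained rises (12.3%, exact Clopper-Pearson 95% interval 8.68 to 16.8%). The share was 91 of 382 (23.8%, 19.6 to 28.4%) for lost rises, 128 of 2050 (6.24%, 5.24 to 7.38%) for kept rises and 27.6% over all windows tested. The mean number of protein-coding genes was 2.66, 2.17, 3.75 and 2.12 in the same order. These intervals cover the counting of places alone, and no test of the differences was made. Among gained rises of at least 3 windows the share was 13 of 65 (20.0%, 11.1 to 31.8%), and among those of 1 or 2 windows 21 of 211 (9.95%, 6.27 to 14.8%), so the value for the longer rises lay nearer to that of lost rises.

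**Figure D4:**
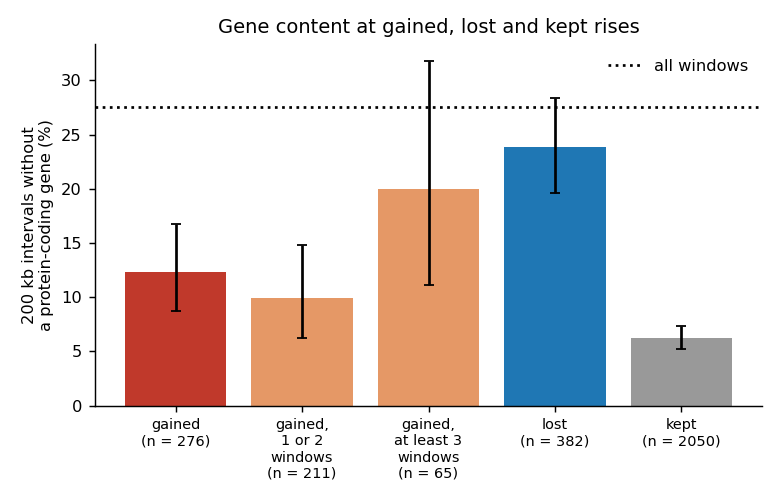
Share of 200 kb intervals without a protein-coding gene (vertical axis, percent, from 0) at gained, lost and kept rises and at gained rises by number of merged windows; error bars are exact 95% binomial intervals and the dotted line is the share over all windows tested. Gained rises stand at 12.3%, below lost rises at 23.8% and above kept rises at 6.24%.

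A start of a protein-coding gene lay in 187 of the 276 peak intervals (67.8%), in 53.7% of those of lost rises, in 77.9% of those of kept rises and in 49.2% over all windows. Of the 451 promoters at gained rises, 242 (53.7%) were CpG-rich, taken as an observed to expected CpG ratio of at least 0.6 with a GC content of at least 50%. The share was 46.0% at lost rises, 60.6% at kept rises and 47.2% over all 16457 autosomal genes with a listed promoter, out of 20665. Gained rises as a whole lay between lost and kept rises in each of these measures, which the rule did not use. Within the group the CpG-rich share was 59.6% of 235 promoters where WT rose less and 49.5% of 200 where WT was flat. It was 24.0% of 25 where WT fell, and 44.9% of 49 at gained rises farther than 500 kb from a rise in all 4 libraries. The last 2 values lay below that of lost rises.

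Gained rises occurred on every autosome. Their density was 1.17 per 10 Mb tested, from 0.344 on chromosome 19 (2 rises) to 1.67 on chromosome 3 (26 rises). Chromosomes 13, 5 and 15 followed with 1.66, 1.59 and 1.59 per 10 Mb, and chromosome 16 was low with 5 rises. Lost rises had their highest density elsewhere, at 2.37 per 10 Mb on chromosome 7 and 2.14 on chromosome 10. Chromosomes 3, 13 and 15 were dense in lost rises as well, with 2.06, 1.74 and 1.89 against 1.62 over all autosomes. Chromosome 5 was low in them with 0.971. On chromosome X, outside the rule, 1.11% of windows met the thresholds for gained rises and 1.09% those for lost ones. Within 5 Mb of the end of the tested windows of a chromosome lay 25 of 276 gained rises (9.06%), against 8.01% of all windows.

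The median distance to the nearest other gained rise was 3193.8 kb, and 69 of 276 (25.0%) had another within 1 Mb. Over all windows the median distance to a gained rise was 3175.0 kb and 19.9% had one within 1 Mb. Of the 69, 52 had it within 300 kb. When kept windows up to 100 kb apart were merged, 249 gained rises remained and the share with another within 1 Mb fell to 6.83%. Of the 65 gained rises of at least 3 windows, 0 had another such rise within 1 Mb.

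The densest stretches of 5 Mb held 5 gained rises once and 4 in 3 places. The first, on chromosome 11 with rise middles from 26150000 to 29250000, held none of at least 3 windows, and its largest gap was 1.32 SD. At that place, which has no protein-coding gene, D was 0.741 and 1.16 SD in WT and 2.69 and 2.48 SD in KO. The second, on chromosome 3 from 87487500 to 92312500, joins the Fcrl and Etv3 rise to 3 overlapping ones over the Sprr2 and Lor genes of the epidermal differentiation complex. The third, on chromosome 15 from 59300000 to 64025000, includes the cholesterol synthesis gene Sqle, with gaps of at most 1.03 SD. The other stretch with 4, on chromosome 12 from 37750000 to 38825000, is the shortest at 1.075 Mb, holds 1 rise of at least 3 windows, and lies at Dgkb, a diacylglycerol kinase gene, and Etv1, which encodes an ETS-family transcription factor. In all 4 stretches some of the rises overlap each other.

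A D taken 200 kb to either side shares a polarity value, with opposite sign, with the D that chose a gained rise, so the nearness of lost rises is not independent of the rule and is given as a description. A lost rise lay within 500 kb of 79 of 276 gained rises (28.6%), against 14.6% of all windows and 10.2% of kept rises. At Lrrc31 the nearest lost rise was 125.0 kb away, and at Jun 200.0 kb, whereas at Adam7 it was 12862.5 kb away. The share depends on the scale: with a single SD for all 4 libraries it was 10.6%, against 6.56% of all windows on that scale, and the gained and lost counts then became 573 and 163 in place of 276 and 382. Gained rises were thus 41.9% of both kinds together on the scale of each library's own SD and 77.9% with a single SD.

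The gained rises were chosen with all 4 libraries, so no pair of libraries is left to check them, and their own stability was not tested. Instead, larger sets of rises were chosen in a single same-numbered pair of libraries. They were read in the other pair, which took no part in the choice. The shares over all windows come from windows that were not matched to these rises in KO D, so they are given as a description. The rule in replicate 1 alone kept 2.29% of windows, in 963 rises. In replicate 2, KO D was above WT D at 691 of these (71.8%, against 50.0% of all windows) and by at least 0.75 SD at 302 (31.4%, against 14.02%). The median difference was 0.4003 SD there and 1.01 SD in the pair that chose them. For the 95 rises of at least 5 windows, the difference was above 0 at 87 (91.6%) and at least 0.75 SD at 59 (62.1%), with a median of 0.944 SD.

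In the opposite order a lower share reached 0.75 SD, and the share over all windows was lower too. The rule in replicate 2 alone kept 4.04% of windows, in 1869 rises. In replicate 1, the difference was above 0 at 1274 (68.2%, against 50.2% of all windows) and at least 0.75 SD at 359 (19.2%, against 7.91%). Of the 127 rises of at least 5 windows, 120 (94.5%) were above 0 and 67 (52.8%) reached 0.75 SD. The share was thus higher among longer rises in both orders. Lost rises chosen the same way (2.81% of windows in replicate 1 and 4.5% in replicate 2) reached 0.75 SD in the other pair at 39.0% and 22.3% of places.

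**Figure D5:**
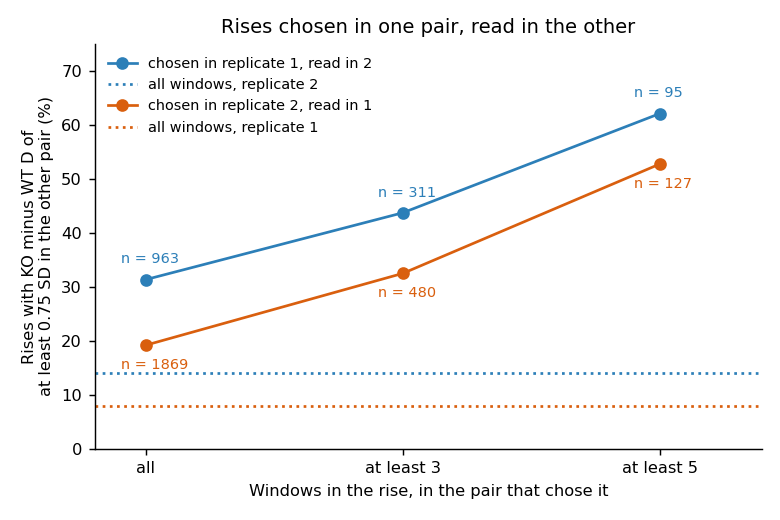
Share of rises (vertical axis, percent) whose KO minus WT D reached 0.75 SD in the pair of libraries not used to choose them, for all rises and for those of at least 3 and at least 5 windows (horizontal axis); dotted lines give the share over all windows in the pair that was read. The share climbs from 31.4% to 62.1% for rises chosen in replicate 1 and from 19.2% to 52.8% for those chosen in replicate 2.

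Windows without a value were more frequent in KO, both near the gained rises and over all autosomes. Within 500 kb of the gained rises, 71 and 78 of 12898 windows had no value in WT, and 104 and 127 had none in KO. The difference of 41.0 windows had an exact two-sided permutation p of 0.333, the smallest that 2 against 2 libraries allow. As shares these are 0.550 and 0.605% for the WT libraries, against 0.806 and 0.985% for the KO libraries. Over all autosomal windows the order was the same, with 3.37 and 3.40% for WT against 3.64 and 3.75% for KO. A window without a value in some library lay within 500 kb of 19 of 276 gained rises (6.88%), against 3.47% of all windows. The table gives no read counts, so depth is unknown, and the part of coverage in the result was not tested.

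The thresholds pass through a continuous range. The member with the smallest gap, on chromosome 8 from 128650000 to 128850000, had 0.751 SD, with D of 0.838 and 0.765 SD in WT and 1.89 and 1.59 SD in KO. The nearest window outside, on chromosome 15 from 97650000 to 97850000, had a gap of 0.74997 SD, with D of 0.528 and 0.540 SD in WT and 1.89 and 1.29 SD in KO.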

How the data were processed

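Per the submitters' processing notes, reads were trimmed with Trim Galore 0.6.5 and aligned with Bowtie2 2.4.1 to GRCm38; per the file headers they were deduplicated. The deposited score is a signed strand imbalance in percentage points, from -50 to 50, per 100 kb window. The program, the positive strand and any minimum of reads are not given in the sources used here, and depth is unknown. For WT replicate 2, label and column name carry different index sequences, and the column was matched by library name.

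Full-length autosomal windows were used (98444 of 109033 in the table). Members, gene lists and alternatives were chosen with earlier results of these data known. Named rises were the 20 with the largest gap, with up to 6 protein-coding genes or the nearest one, plus genes of the fixed lists, the 3 densest stretches of 5 Mb and the windows at the threshold; genes outside this rule were named after their values were seen. Of the 20 rises, 1 is not reported here. Genes and promoters came from RefSeq (GRCm38.p6), which gives gene intervals and no exons. The rule was run on simulated profiles with implanted rises as a check of the code alone. The noise there was preset and not fitted to these libraries, so it gives no rate of false calls for them. Computation used matplotlib 3.10.9, scipy 1.17.1 and pandas 2.3.3 with numpy 2.4.6 under Python 3.11.15.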

Additional observations from a re-analysis of the deposited data

Results flagged for a closer look

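Chromosome X lies outside the rule and was read with the same thresholds and the autosomal SD of each library. It held 33 gained and 29 lost rises over 144.0 Mb, or 2.29 gained rises per 10 Mb against 1.17 on the autosomes, and 1.11% of its windows met the rule for gained rises and 1.09% that for lost ones. The largest gap was at Agtr2, an angiotensin receptor gene, and the amino acid transporter gene Slc6a14 (21450000 to 21800000), where D was 1.20 and 1.12 SD in WT and 3.50 and 3.09 SD in KO. At the glycerol kinase gene Gk (85725000 to 85925000) it was -1.01 and -0.712 SD in WT and 1.09 and 1.36 SD in KO. At Tmem47 (80975000 to 81275000) it was -0.446 and 0.0615 SD in WT and 2.51 and 1.84 SD in KO. The difference in density between X and the autosomes was not tested.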

How the results depend on the processing

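The counts depend on the thresholds, the scale and the use of both replicates. Gained and lost rises numbered 566 and 740 with a gap of 0.5 SD, 133 and 204 with a gap of 1 SD, 573 and 163 with a single SD, 116 and 188 over windows that do not overlap, and 771 and 971 with genotype means. Gained rises were 183 with a running mean of 3 windows, and lost rises were 246 with a smaller D of at least 1.5 SD. Omission of a library relaxes the rule, since 1 fewer value must clear it, and gave 465 (without WT replicate 2) to 1292 (without KO replicate 1) gained and 594 to 993 lost rises; without WT replicate 1 and KO replicate 2 the gained rises were 592 and 606.

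Of the 276 gained rises, 56.2% were found again within 100 kb with D over 300 kb, 63.4% with D over 150 kb and 47.8% over windows that do not overlap. The share with another gained rise within 1 Mb was 38.7% at a gap of 0.5 SD, 13.2% with D over 150 kb, 38.0% with a single SD, 6.56% with the running mean, 6.83% with windows up to 100 kb apart merged, 1.72% without overlap, 43.8% with means, 0 among rises of at least 3 windows, and 27.5 to 63.5% without a library. That with a lost rise within 500 kb was 34.5% at 0.5 SD, 18.8% with a KO D of at least 1.5 SD, 10.6% with a single SD, 15.5% without overlap, 44.7% with means and 32.2 to 44.3% without a library. That without a protein-coding gene (33 of 276 over whole intervals) was 17.2% with D over 150 kb, 18.5% among rises of at least 3 windows and 10.3 to 18.4% without a library. Median width was 150 and 300 kb with D over those distances. For the rises chosen in a single pair of libraries, which are not the gained rises, the share above 0 in the pair not used was 68.2% in the opposite order. For windows without a value, 1 Mb flanks gave 72.5 windows, and omission of a library 29.5 to 52.5. The choices of rises of at least 3 windows and of libraries left out for coverage were made after seeing the data.

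Set against the same-numbered WT library (a replicate block), gained rises numbered 373 and lost rises 493. In D, the departures of libraries that share a number from the mean of their genotype had a correlation of 0.0122 over windows, so the numbers do not show a pairing. The gap of the 20 named rises, which were chosen for a large gap, was at least 0.75 SD in 212 of 219 alternatives. Those below, by rank of gap, were 6, 7, 9, 11, 15 and 20 with D over 300 kb (lowest 0.347 SD) and 16 with D over 150 kb (0.580 SD). Only 139 of the 219 use all 4 libraries, and leaving out a library cannot lower the gap. Nor can the use of genotype means or of same-numbered pairs, so none of these alternatives could have fallen below 0.75 SD. The cause of the moved values was not tested, apart from the looser or stricter rule itself. Without read counts, no limit from depth could be set.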

Other observations

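Transcription from gene starts at gained rises pointed away from the middle of the 200 kb interval slightly more often than towards it. Of 488 starts of protein-coding genes there, 277 (56.8%) pointed outwards, against 267 of 539 (49.5%) at lost rises, 2725 of 5290 (51.5%) at kept rises and 50.0% over all windows. Starts within an interval are neighbours on the chromosome and some were counted in overlapping rises, and no test was made.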
